A study of Mus musculus with 6 samples.

Results

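Translation initiation and elongation factors are the soluble proteins that bring the ribosome to the start codon of an mRNA and then drive it along the message. Their genes were described here in Neuro2a cells, a mouse neuroblastoma line, given D-serine. The members were the rows of the count table whose symbol begins with Eif1 to Eif6, Eef1 or Eef2, leaving out the eIF2 kinases, the eIF4E-binding proteins, Eef1e1 and Eef2k. The rule found 55 of the 24391 genes. Poly(A) RNA was sequenced in 6 libraries from cells kept for 18 h in a medium labelled D-MEM(-SG) with fetal bovine serum, which both groups shared. The control group had vehicle (3 libraries) and the other group had 5 mM D-serine (3 libraries). The labels do not say whether libraries of a group came from separate cultures, so p-values measure the spread between these libraries, which may be technical. All libraries came from 1 tumour-derived line, and a change in bulk RNA cannot separate RNA per cell from the share of cells of a kind.

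Initiation begins when eIF2, loaded with GTP, carries the initiator tRNA to the small ribosomal subunit together with eIF1, eIF1A, eIF3 and eIF5. eIF4F, made of the cap-binding protein eIF4E, the scaffold eIF4G and the helicase eIF4A, brings this complex to the mRNA cap. eIF2B then exchanges the GDP left on eIF2 for GTP, and phosphorylation of eIF2 during amino acid shortage blocks that exchange. In elongation, eEF1A delivers each aminoacyl-tRNA, the eEF1B subunits recharge eEF1A with GTP, and eEF2 moves the ribosome by a codon.

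Total counts lay between 32518483 and 40024265 per library, and members took 2.43% to 2.56% of them. Counts of the same group differed by more than sampling noise (chi-square per degree of freedom 3.88 to 17.7, highest for pairs with D-serine replicate 1). D-serine replicate 1 also stood apart in gene length. The slope of its log2 CPM on log2 exonic length, relative to the mean of the 6 libraries, was -0.072, whereas the other slopes lay between -0.0040 and 0.036. The unit CPM is a read count scaled to a common library total, after adjustment by the trimmed mean of M values (TMM). The neuroblastoma label was checked on 10 markers, of which 8 were tested. Tubb3 lay between 466.6 and 623.9 CPM, Hand2 between 238.8 and 260.6, Stmn2 between 148.1 and 174.1 and the other 2 transcription factor genes of the list between 27.75 and 62.4 CPM. The catecholamine enzyme genes Dbh, Th and Ddc were low (0.833 to 2.96 CPM), and the neurofilament genes Nefl and Nefm were at or near 0. The summed level of the 10 was 945.4 to 1011 CPM in control libraries and 1059 to 1155 CPM with D-serine, and Tubb3 was the 1 marker that passed the test. The summed fibroblast, glial, immune, endothelial and epithelial markers were at most 16.15 CPM per list in every library and none of them passed the test. Col3a1, Lum, Aqp4, Olig2 and Kdr had no count. The part of these markers in the results was not tested.

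Of the 55 members, 51 had enough counts to be tested and 4 had no count in any library. A count of 0 allows a level of up to 0.0745 to 0.0930 CPM, depending on the library (3 counts of the total, counting error only). Eif4e1b encodes a cap-binding protein known from oocytes and Eif2s3y is the Y-linked copy of the eIF2 gamma gene. The other pair at 0, Eif3j1 and Eif3j2, encodes the loosely bound eIF3j subunit. In this table they share 2409 exonic bases on the same strand, the whole of Eif3j2, so their 0 cannot be read as absence of the transcript.

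Levels of the members were compared after division by exonic length. Eef1a1, which encodes the eEF1A of most tissues, was highest at 3300 CPM per kilobase (mean of 6 libraries), before Eif1 at 964, Eef2 at 739 and Eif5a at 393 CPM per kilobase. Eef1a1 is known to have processed pseudogenes and the treatment of reads with several positions is not stated, so its level is uncertain. Eef2kmt, which encodes the methyltransferase of eEF2, was lowest at 1.75 CPM per kilobase, and 468 of its 2140 exonic bases lie opposite Alg1. Subunits of eIF3 were close to each other: the 12 tested ones lay between 103.5 (Eif3m) and 341.5 (Eif3d) CPM per kilobase. Subunits of eIF2B were less even, with Eif2b2 at 100.2 and the other 4 between 10.76 and 26.45 CPM per kilobase.

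**Figure D1:**
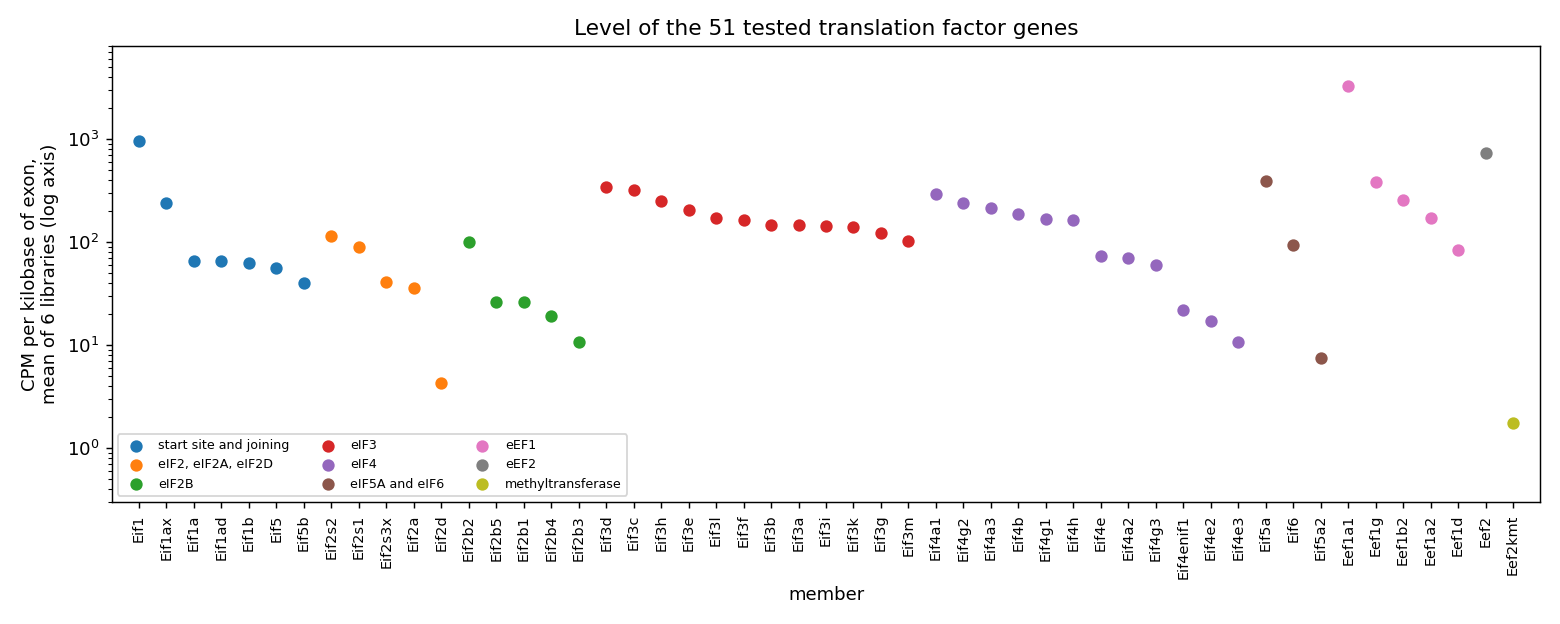
Level of each of the 51 tested members, as CPM per kilobase of exon averaged over the 6 libraries (log axis), coloured by role. Eef1a1 at 3300 CPM per kilobase is highest, Eef2kmt at 1.75 is lowest, and the eIF3 subunits lie in a narrow band between 103.5 and 341.5.

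With D-serine, Eif3g and Eif2s2 rose and Eif4g3, Eif2b2 and Eef1d fell. These 5 of 51 tested members (9.80%) passed an adjusted p under 0.05 in edgeR's quasi-likelihood test, against 9.74% of all 13366 genes tested. Split by direction, 2 members rose, where 4.84% of all genes did, and 3 fell, where 4.90% did. The share called was thus that of the whole table. The median log2 fold change of the members was 0.0097, against 0.0053 over all genes, with 27 members above 0 and 24 below. Differences were smaller in size than in the table as a whole, with a median absolute log2 fold change of 0.059 against 0.12, and 33 members differed by less than 0.10. The members and the table were not matched for level, and the part of counting error in this contrast was not tested. In 20 members the ranges of the groups stood apart (39.2%, not overlapping), 11 higher and 9 lower, against 32.9% of all genes. At an unadjusted p under 0.05 there were 17 members, 9 higher and 8 lower, where 28.2% of all genes passed. DESeq2 called the same 5 members and Eif2b5 (12.3% of all genes called), and limma-voom called the same 5 (9.43%). Without control replicate 1 or control replicate 2, edgeR called 0 members, with 11 and 10 at an unadjusted p under 0.05, and 0.921% and 0.501% of all genes were called. Without control replicate 3 or D-serine replicate 3 it called Eif4g3 alone among the members, and 3.34% and 2.15% of all genes. In these fits the loss of calls was thus seen across the table. Without D-serine replicate 1, in contrast, edgeR called 7 members and 12.5% of all genes. Without D-serine replicate 2 it called 4 members and 11.6% of all genes.

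**Figure D2:**
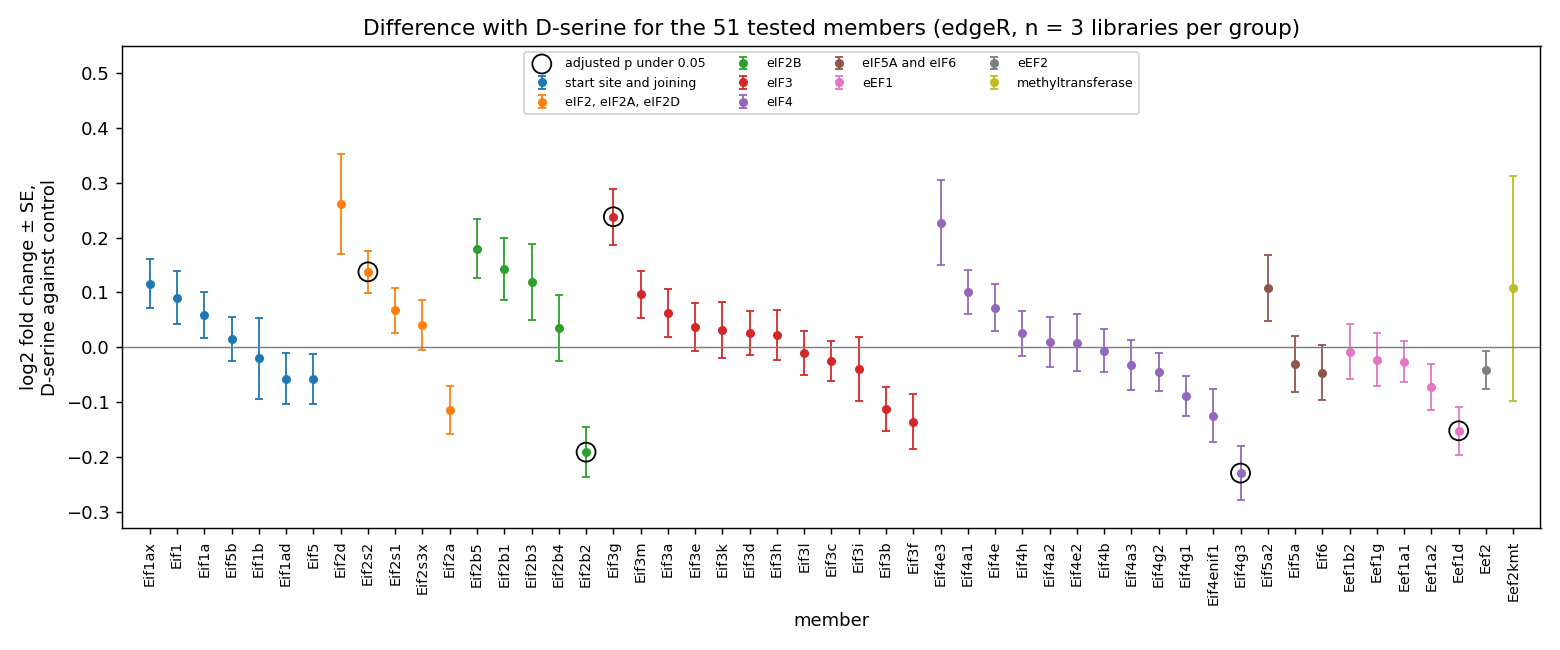
Log2 fold change with D-serine against control for the 51 tested members (points, edgeR; bars are the standard error, 3 libraries per group), ordered within each role. Circles mark the 5 members past an adjusted p of 0.05, of which Eif3g (0.24) and Eif2s2 (0.14) lie above 0 and Eef1d (-0.15), Eif2b2 (-0.19) and Eif4g3 (-0.23) below.

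Of the 7 genes grouped under start site selection and subunit joining, 0 passed the edgeR test, where 9.74% of all genes did. In the same test 1 of them, Eif1ax, had an unadjusted p under 0.05 (0.0223, adjusted p = 0.113), where 28.2% of all genes did. Eif1ad was placed in this group by the list used, and its part in these steps was not tested. Eif1 encodes the factor that guards against wrong start codons, and it was the most abundant of the group. It read 1095, 1156 and 1141 CPM in control replicates 1 to 3 and 1298, 1137 and 1176 CPM in D-serine replicates 1 to 3, so the groups overlapped and D-serine replicate 1 was the high one. Its log2 fold change was 0.090 (SE 0.049, adjusted p = 0.244) and became -0.012 with each library's length trend removed. The paralog Eif1b was less abundant, with Eif1 counts 19.6 times those of Eif1b in control. Eif1b was at 57.7 ± 1.37 CPM in control libraries and 56.9 ± 6.95 CPM in D-serine libraries (SD, n = 3 each). Eif1a and Eif1ax are closely similar genes for eIF1A, and reads they share could be split between them. Eif1a read 182.5 to 188.0 CPM in control libraries and 188.8 to 198.9 CPM with D-serine, and Eif1ax 208.3 to 215.7 and 222.1 to 240.6 CPM. Neither pair of groups overlapped. The log2 ratio of Eif1a to Eif1ax counts was -0.18, -0.20 and -0.19 in control and -0.27, -0.23 and -0.23 with D-serine. These ratios did not overlap either (two-sided exact permutation p = 0.1, which is the lowest value possible with 3 against 3 libraries, and 0.35 adjusted over 7 pairs). Their difference was -0.056, and it turned to 0.024 with overlap once the length trend was removed, when the log2 fold change of Eif1ax was 0.0016 and that of Eif1a 0.026. Eif1ax has 926 exonic bases and Eif1a 2879.

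eIF2 is a trimer whose alpha subunit, encoded by Eif2s1, carries the phosphorylation site, whose beta subunit, encoded by Eif2s2, binds eIF5 and eIF2B, and whose gamma subunit, encoded by Eif2s3x, binds GTP and the tRNA. Eif2s2 (chromosome 2, 154697146 to 154718642 as deposited, minus strand) read 275.1, 274.6 and 275.9 CPM in control libraries and 304.7, 303.2 and 300.3 CPM with D-serine. Every D-serine library was above every control library, and the libraries within a group were nearly level. Eif2s2 rose by 0.14 on the log2 scale (SE 0.038, edgeR adjusted p = 0.0406), which is 10.0%. Leaving out any library other than D-serine replicate 1 ended the call (edgeR adjusted p 0.0622 to 0.154). Replicate number as a block also ended it (0.118). With the length trend removed the log2 fold change of Eif2s2 was 0.099 (edgeR adjusted p = 0.0493). The other subunits, singled out after their values were seen, did not pass the test. Eif2s1 read 264.6, 277.3 and 280.3 CPM in control libraries and 290.5, 286.1 and 285.1 CPM with D-serine (log2 fold change 0.068, adjusted p = 0.303). Eif2s3x read 142.4 to 146.2 CPM in control libraries and 140.9 to 153.2 CPM with D-serine (0.041, adjusted p = 0.590), so its groups overlapped. Eif2d, a factor that can bring tRNA to the ribosome without GTP, had the widest point difference of all members but few counts (8.86 ± 0.33 against 10.6 ± 0.53 CPM, SD, n = 3 each). Its log2 fold change was 0.26 (SE 0.092, adjusted p = 0.0858). Eif2a, also named after its values were seen, went the other way. It read 84.4, 85.8 and 85.3 CPM in control libraries and 78.7 CPM in each D-serine library, without overlap. Its log2 fold change was -0.11 (SE 0.044, edgeR adjusted p = 0.113), and -0.16 with the length trend removed (edgeR adjusted p = 0.0139). Eif2a shares 64 of its 2299 exonic bases with Serp1 on the opposite strand, which had 58727 counts against 18232 for Eif2a. The strand setting is not given, and the part of reads from Serp1 was not tested. Summed over the 6 genes of this role, of which Eif2s3y had no count, control libraries held 775 to 795 CPM and D-serine libraries 826 to 830 CPM. The sum thus hides the lower Eif2a.

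eIF2B has 5 different subunits, and its beta and epsilon subunits are encoded by Eif2b2 and Eif2b5. Eif2b2 (chromosome 12, 86560463 to 86567578 as deposited, plus strand) fell, from 161.3, 169.1 and 173.7 CPM in control libraries down to 153.1, 144.2 and 144.2 CPM in D-serine libraries. The groups did not overlap, and D-serine replicate 1 lay closest to control. The log2 fold change was -0.19 (SE 0.046, edgeR adjusted p = 0.0246), a percent change of -12.4%. Leaving out any control library or D-serine replicate 3 ended the call of Eif2b2 (edgeR adjusted p 0.06 to 0.108). Replicate number as a block (0.0796) and upper quartile scaling (0.0501) also ended it. With the length trend removed the log2 fold change of Eif2b2 was -0.27 (edgeR adjusted p = 0.000135). The other 4 subunits, named after their values were seen, had log2 fold changes above 0 and none passed the test: Eif2b5 0.18, Eif2b1 0.14, Eif2b3 0.12 and Eif2b4 0.034, the last of which was -0.016 with the length trend removed. Eif2b5, whose product is the catalytic subunit, came nearest. It read 64.4, 61.1 and 64.7 CPM in control libraries and 76.1, 68.3 and 71.0 CPM with D-serine, with no overlap (SE 0.054, adjusted p = 0.0535). The log2 ratio of Eif2b5 to Eif2b2 counts does not depend on scaling. It was -1.32, -1.47 and -1.43 in control and -1.01, -1.08 and -1.02 with D-serine, a difference of 0.37 (0.41 with the length trend removed). This pair was also chosen after its values were seen, and its exact two-sided permutation p was 0.1, again the smallest possible. Summed over all 5 genes, the groups overlapped (353 to 372 CPM in control and 346 to 376 CPM in D-serine libraries).

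**Figure D3:**
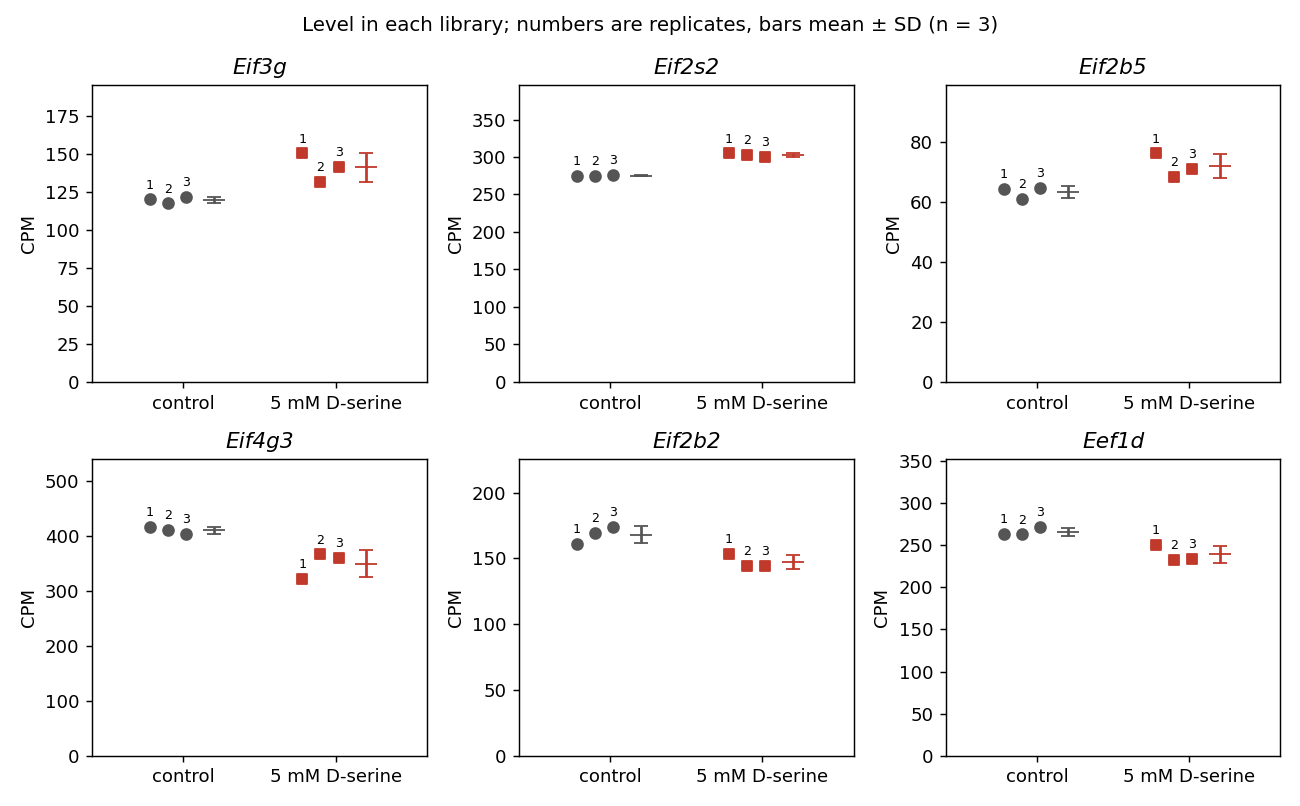
CPM of 6 members in each library (circles, control; squares, 5 mM D-serine; numbers are replicates; bars show mean ± SD, n = 3, and axes start at 0). Eif3g, Eif2s2 and Eif2b5 are higher and Eif4g3, Eif2b2 and Eef1d lower in all 3 D-serine libraries than in all 3 control libraries, and the call of Eif2b5 (adjusted p = 0.0535) misses the threshold.

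eIF3 is the largest initiation factor and the platform that holds the others on the small subunit. Of its 12 tested subunit genes 1 rose, 0 fell and 11 did not pass the test (8.33% called, against 9.74% of all genes). Eif3g (chromosome 9, 20698793 to 20703034 as deposited, minus strand) encodes an RNA-binding subunit with roles in scanning. It read 120.3, 117.7 and 121.7 CPM in control libraries and 150.6, 131.9 and 141.7 CPM with D-serine, and the lowest D-serine library was above the highest control library. Its log2 fold change was 0.24 (SE 0.051, edgeR adjusted p = 0.0163), an increase of 18.0%. Leaving out any control library or D-serine replicate 3 ended the call of Eif3g (edgeR adjusted p 0.0512 to 0.0867). Replicate number as a block also ended it (0.0505). With each library's length trend removed the log2 fold change was 0.13, so the value depended on that step by more than 1.5 times. Eif3d, which binds the cap of some mRNAs and was the most abundant per kilobase, read 636.6 to 665.5 CPM in control libraries and 642.7 to 681.2 CPM with D-serine. Its log2 fold change was 0.027 (SE 0.041, adjusted p = 0.710) and -0.034 with the length trend removed. The other subunits lay between -0.14 (Eif3f) and 0.096 (Eif3m). Eif3b, an RNA-binding scaffold subunit, was at -0.11 (adjusted p = 0.0947). Both Eif3b and Eif3f, named after their values were seen, were called lower without D-serine replicate 1 (12.5% of all genes called) and with the length trend removed (15.8%). The sum over eIF3 overlapped between the groups (4488 to 4583 CPM in control and 4468 to 4613 CPM in D-serine libraries).

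Of 12 tested eIF4 genes, 1 fell, 0 rose and 11 did not pass the test (8.33% called, against 9.74% of all genes). Eif4g3 (chromosome 4, 137549371 to 137762994 as deposited, plus strand) encodes an eIF4G scaffold that joins eIF4E, eIF4A and eIF3. It read 415.8, 410.6 and 403.2 CPM in control libraries and 321.7, 366.4 and 360.5 CPM with D-serine, with D-serine replicate 1 the lowest and no overlap. It fell by 0.23 on the log2 scale (SE 0.050, edgeR adjusted p = 0.0167), a percent change of -14.7%. Eif4g3 passed in 13 of 16 alternative fits, more than any other member, with a highest adjusted p of 0.0785. Its more abundant paralog Eif4g1 read 925.0 to 937.8 CPM in control libraries and 858.3 to 897.7 CPM with D-serine, without overlap (log2 fold change -0.089, SE 0.037, adjusted p = 0.137). The log2 ratio of Eif4g1 to Eif4g3 counts was 1.17, 1.19 and 1.20 in control and 1.42, 1.29 and 1.28 with D-serine (difference 0.14, exact two-sided permutation p = 0.1, 0.35 adjusted over 7 pairs). Every D-serine ratio was thus above every control ratio.

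The helicase genes Eif4a1 and Eif4a2 did not pass the test. Eif4a1 read 518.4 to 541.7 CPM in control libraries and 554.8 to 585.5 CPM with D-serine, without overlap (log2 fold change 0.10, SE 0.041, adjusted p = 0.126). Eif4a2, which shares 160 exonic bases with Rfc4 on the opposite strand, read 212.7 to 231.2 and 218.0 to 230.2 CPM (0.0097, SE 0.045, adjusted p = 0.919). The ratio of Eif4a1 to Eif4a2 overlapped between the groups (difference 0.091 on the log2 scale, exact two-sided permutation p = 0.3). The cap-binding genes also missed the threshold. Eif4e, the main one, read 200.1 to 209.5 CPM in control libraries and 206.4 to 219.7 CPM with D-serine (0.072, adjusted p = 0.296), and Eif4e2, whose product represses some capped mRNAs, had a log2 fold change of 0.0087 (adjusted p = 0.937). Eif4e3, an atypical cap-binding gene named after its values were seen, was low at 24.95 ± 2.34 CPM in control libraries and 29.2 ± 1.63 CPM in D-serine libraries (SD, n = 3 each; 0.23, SE 0.077, adjusted p = 0.0770).

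Eif5a and Eif5a2 encode the hypusine-bearing factor that helps ribosomes through stalling sequences, and Eif6 encodes a factor that keeps the subunits apart. None of the 3 passed the edgeR test and none had an unadjusted p under 0.05, where 9.74% and 28.2% of all genes did. Eif5a read 777.7, 778.2 and 849.5 CPM in control libraries and 838.0, 742.8 and 773.6 CPM with D-serine, with 1 high library in each group (log2 fold change -0.031, SE 0.051, adjusted p = 0.735). Eif5a2 was at 35.7 ± 1.71 and 38.5 ± 1.62 CPM (SD, n = 3 each; 0.11, SE 0.060, adjusted p = 0.259). As counted, the log2 ratio of the pair overlapped between the groups. It was 4.49 ± 0.14 in control and 4.35 ± 0.15 with D-serine (SD over 3 libraries each, with an exact two-sided permutation p = 0.4). With the length trend removed, a step chosen after seeing the data, the ratio stood apart (difference -0.22). Its exact two-sided permutation p was 0.1, the smallest possible and not adjusted. The ratio of Eif1 to Eif1b likewise went from overlap as counted to apart with the trend removed (difference 0.13).

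Of the 5 genes of the eEF1 complex, Eef1d fell and 4 did not pass the test, where 9.74% of all genes were called. Eef1d (chromosome 15, 75725226 to 75739986 as deposited, minus strand) encodes the delta subunit of eEF1B, a nucleotide exchange factor for eEF1A, and the table does not separate its isoforms. It read 263.3, 263.0 and 271.6 CPM in control libraries and 250.9, 232.9 and 234.1 CPM with D-serine, without overlap. The log2 fold change was -0.15 (SE 0.044, edgeR adjusted p = 0.0454), a percent change of -10.0%. It was the call nearest to the threshold, and upper quartile scaling (adjusted p = 0.107), library totals (0.0924) and leaving out any library other than D-serine replicate 1 ended it. Eef1a1 read 5856, 5901 and 6114 CPM in control libraries and 6134, 5732 and 5681 CPM with D-serine (-0.026, SE 0.038, adjusted p = 0.685). Eef1a2, the form of neurons and muscle, read 349.1, 355.3 and 368.6 CPM in control libraries and 347.2, 343.4 and 329.8 CPM with D-serine. Its groups did not overlap, though by a narrow margin (-0.072, SE 0.042, adjusted p = 0.277). The log2 ratio of Eef1a1 to Eef1a2 was 4.06 ± 0.0088 in control and 4.10 ± 0.041 with D-serine (SD over 3 libraries each, with an exact two-sided permutation p = 0.2). Eef1b2 and Eef1g, the alpha and gamma subunits of eEF1B, were at -0.0085 and -0.023. All 5 values were below 0 as fitted, but those of Eef1a1, Eef1b2 and Eef1g were above 0 under upper quartile scaling and with library totals. Eef2 read 2308, 2296 and 2370 CPM in control libraries and 2306, 2246 and 2226 CPM with D-serine, with overlap (-0.041, SE 0.035, adjusted p = 0.467). Eef2kmt lay between 2.62 and 4.79 CPM (0.11, SE 0.20, adjusted p = 0.774), and a difference of the size of the called ones was not detectable at its depth of 97 to 193 counts.

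Across the 51 tested members, the rank correlation (Spearman's rho) of exonic length with log2 fold change was -0.131 as fitted, 0.065 without D-serine replicate 1 and 0.287 with the length trend removed, against -0.291 as fitted over all 13366 genes. The trend was fitted on all genes, and after its removal the relation among members was larger in size and of the other sign. Of the 10 members shorter than 1500 bases, 6 had a log2 fold change above 0 as fitted and 2 with the trend removed. These are descriptions across genes that share libraries and depth. Removing each library's smooth trend on length changed the split of calls: 2 members were then higher and 11 lower, against 5.24% of all genes higher and 10.6% lower. The 13 included all 5 members called as fitted. The 8 others, named after their values were seen, were Eif2a, Eif3b, Eif3f, Eif3i, Eif4a3, Eif4enif1, Eif6 and Eef1a2. All 8 were lower, with log2 fold changes between -0.22 (Eif3f) and -0.12 (Eif4a3). The median over members became -0.034, against -0.022 over all genes. The added fit with the trend removed and D-serine replicate 1 left out gave 17 members lower and 0 higher, with 27 at an unadjusted p under 0.05, where 15.5% of all genes were called and 11.3% were lower. All 5 eEF1 genes and Eef2 were among the 17, in a fit chosen after seeing the data. In the main fit Eef1d alone among these genes passed the test. DESeq2 and limma-voom were not run with the trend removed.

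**Figure D4:**
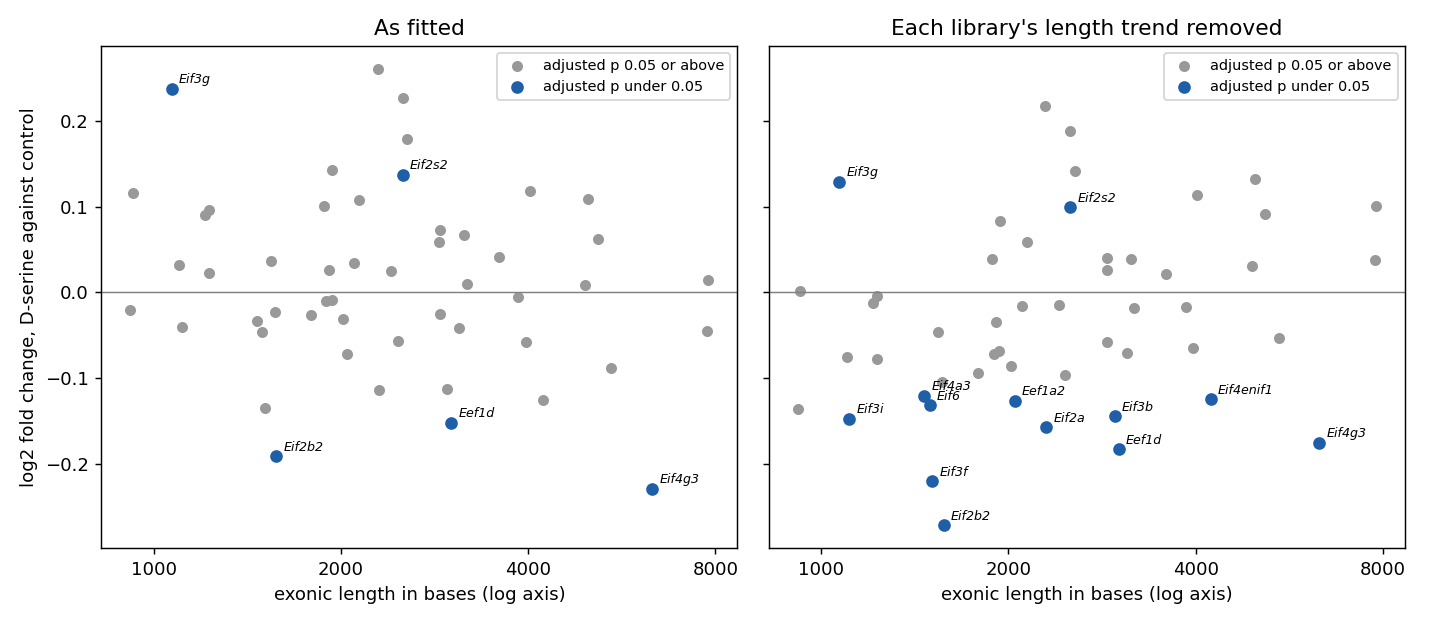
Log2 fold change with D-serine against exonic length (log axis) for the 51 tested members, as fitted (left) and with each library's length trend removed (right). Filled blue points are members past an adjusted p of 0.05, which number 5 on the left and 13 on the right, 11 of them below 0.

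The sequences just before the annotated starts of the called genes are shown as the stretches just upstream of these transcripts. They come from RefSeq on build GRCm38.p6, where 43 of the 55 members had 1 or more promoter windows (250 bases before to 50 after a start). Each line gives the 100 bases before a start, 5′ to 3′, and Eef1d, which had no window, is named only.
Eif3g (chr9:20898591-20898690, minus strand): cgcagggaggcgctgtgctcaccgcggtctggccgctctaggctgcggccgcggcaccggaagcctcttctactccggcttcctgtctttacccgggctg
Eif2s2 (chr2:154892907-154893006, minus strand): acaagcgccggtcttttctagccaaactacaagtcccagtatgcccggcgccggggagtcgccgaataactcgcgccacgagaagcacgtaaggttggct
Eif4g3 (chr4:137993355-137993454, plus strand): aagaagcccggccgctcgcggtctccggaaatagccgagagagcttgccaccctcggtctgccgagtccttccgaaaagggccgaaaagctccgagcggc
Eif2b2 (chr12:85219381-85219480, plus strand): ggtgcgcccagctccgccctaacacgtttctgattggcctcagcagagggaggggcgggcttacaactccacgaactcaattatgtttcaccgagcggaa

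The E-box CACGTG, which reads the same on both strands and is bound by MYC and related factors, was searched in the 300-base windows. It was in 13 of 55 member windows (23.6%), against 7.15% of all 32851 windows. By gene, it was in the windows of 11 of 43 member genes (25.6%), against 8.09% of 27025 genes. The background includes genes that were not tested here, and it was not matched to the members for level or base content. The part of these in the higher share was not tested. Of those 11 genes, 0 passed the edgeR test (3 at an unadjusted p under 0.05, and 0 by DESeq2 or limma-voom). Of the 30 tested members that had a window without the E-box, 4 did. Over all genes, 9.74% passed the edgeR test and 28.2% had an unadjusted p under 0.05, while DESeq2 called 12.3% and limma-voom 9.43%. With 11 genes, a count of 0 is thus no result about the motif. The median log2 fold changes were 0.026 in members with the motif and 0.0092 in those without. The 11 genes were Eef2, Eif1b, Eif3a, Eif3f, Eif3k, Eif4a1, Eif4e, Eif4g1, Eif4h, Eif5a and Eif5a2, and the motif stood upstream of the start in all of them but Eif3a. Stretches of 5 of them are shown as examples, with the E-box in capitals.
Eef2 (chr10:81176571-81176610, plus strand): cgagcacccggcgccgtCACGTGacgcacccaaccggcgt
Eif4e (chr3:138527023-138527062, plus strand): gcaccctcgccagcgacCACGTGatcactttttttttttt
Eif4a1 (chr11:69672590-69672629, minus strand): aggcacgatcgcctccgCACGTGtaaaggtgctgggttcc
Eif4g1 (chr16:20672656-20672695, plus strand): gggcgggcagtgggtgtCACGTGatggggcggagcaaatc
Eif3f (chr7:108934330-108934369, plus strand): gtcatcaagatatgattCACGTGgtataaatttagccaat
These matches are descriptions of letters in a window. The composite element read by ATF4 (TGATG, any base, then AA, on both strands) was in 1 member window, that of Eif2s3x, or 1.82% of windows against 3.97% of all.

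Many translation factor mRNAs are known to begin with a C followed by a run of pyrimidines, the TOP motif, through which mTORC1 and LARP1 control their translation. At the annotated starts, a C followed by at least 4 pyrimidines on the sense strand was found in 2 of 55 member windows (3.64%), against 2.51% of all. They belong to Eif2s3x and Eif3f, shown with the tract in capitals after the 25 bases before the start. Neither gene passed the edgeR test. RefSeq starts can lie some bases from the start a cell uses, so the count concerns the annotation.
Eif2s3x (chrX:94212641-94212676, minus strand): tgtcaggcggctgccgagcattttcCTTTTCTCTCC
Eif3f (chr7:108934390-108934425, plus strand): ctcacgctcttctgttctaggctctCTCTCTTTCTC

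Other genes of the pathway were taken from a list of 55 symbols in the table, all tested. Of these, 2 fell and 0 rose (edgeR, 9.74% of all genes called), with 15 at an unadjusted p under 0.05, where 28.2% of all genes passed. DESeq2 called 1 of them higher and 3 lower (12.3% of all genes called). The counts with limma-voom were 0 higher and 2 lower (9.43% of all genes called). Gcn1l1, whose product activates the eIF2 kinase GCN2 on stalled ribosomes, read 281.9, 274.2 and 273.5 CPM in control libraries and 211.6, 245.3 and 252.0 CPM with D-serine (log2 fold change -0.23, SE 0.058, edgeR adjusted p = 0.0300). Larp1, which binds TOP mRNAs, read 463.8, 464.5 and 466.5 CPM in control libraries and 394.8, 431.5 and 419.9 CPM with D-serine (-0.16, SE 0.043, edgeR adjusted p = 0.0327). In both genes the groups did not overlap and D-serine replicate 1 was the lowest library. With the length trend removed the log2 fold changes were -0.14 and -0.10, and 6 genes of the list were lower and 1 higher (15.8% of all genes called in that fit). By group, 1 of 8 genes of the eIF2 kinase, phosphatase and GCN1 arm fell, as did 1 of 7 genes that control eIF4E. Of the 9 hypusine and diphthamide enzymes 4 had an unadjusted p under 0.05 and 0 an adjusted one, where 28.2% of all genes had the former. Their median log2 fold change was 0.16, and 0.062 with the length trend removed. Of the 6 termination, recycling and rescue factors 0 had either, with a median of -0.060, and -0.065 with the length trend removed.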

How the data were processed

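The deposited table holds raw counts of reads for each gene in 6 libraries, with exons and summed exonic length, in featureCounts format per the file headers. Per the submitters' processing notes, bcl2fastq, Trim Galore, HISAT2, featureCounts, Subread and DESeq2 were used and GRCm38 (mm10) was named. The strand setting and the treatment of reads with several positions are not given in the sources used here. All 55 members had a GRCm38.p6 RefSeq entry, but 1 had the same start as there, so coordinates of the table are given as deposited, 1-based, and its build is not settled. Promoter windows are GRCm38.p6.

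Columns named vehicle were matched by number to the samples titled control, which carry that treatment label. All genes entered 1 fit in edgeR 4.0.16 (R 4.3.3): filterByExpr, TMM, quasi-likelihood F test, no covariate, two-sided, Benjamini-Hochberg over the 13366 genes kept, threshold 0.05. The SE is the size of the log2 fold change divided by the square root of F. The length trend was removed per library with a natural spline (5 degrees of freedom). Ratios of paralogs used counts plus 0.5, for pairs with a mean of at least 50 counts each, which left 7 of 9 pairs. Scripts were tested on simulated data. Date-like names stand in place of 27 symbols, and these rows stayed in the fit.

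The rule named every member with an adjusted p under 0.05, the most abundant member per kilobase and the member with the smallest p of each role, both genes of the tested pairs, and up to 2 called genes per group of related genes. Members and lists were chosen with earlier results of these data known. Alternatives were DESeq2 1.42.0, limma-voom (limma 3.58.1), other scalings and filters, replicate number as a block, the length trend and leaving out each library. Some markers of the neuroblastoma list are not reported here and were left out of its sum.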

Additional observations from a re-analysis of the deposited data

How the results depend on the processing

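As fitted, 2 members were higher and 3 lower, where 9.74% of all genes were called in either direction. With library totals 4 were higher (10.1% of all genes called), as without a filter on low counts (10.6%). Under upper quartile scaling 1 was lower (9.92% of all genes called). With the length trend removed 11 were lower (15.8% of all genes called) and the median log2 fold change was -0.034. With that trend removed and D-serine replicate 1 left out, 0 were higher and 17 lower and the median was -0.051. That fit was chosen after seeing the data, and 15.5% of all genes were called in it. Leaving out 1 library at a time gave 0 to 2 members higher and 0 to 5 lower. Between 0.501% and 12.5% of all genes were called in these fits. Of the related genes, 0 were higher and 2 lower as fitted. For them the shares of all genes called are those just given for each fit, and 12.3% with DESeq2. The count higher was 1 with DESeq2, upper quartile scaling, library totals, no filter and the length trend removed, and 0 to 1 without 1 library. The count lower was 1 with upper quartile scaling and with library totals, 6 with the length trend removed, 8 with D-serine replicate 1 also left out, and 0 to 5 without 1 library. The causes were not tested. The 7 fixed ratios of paralogs kept their direction with 1 count added and without any 1 library. Sizes moved by over 1.5 times without 1 library for Eif4a1 to Eif4a2 (0.051 to 0.14), Eif5a to Eif5a2 (-0.22 to -0.059), Eif1 to Eif1b (0.075 to 0.16) and Eef1a1 to Eef1a2 (0.026 to 0.067). With the length trend removed, chosen after seeing the data, 6 kept their direction (Eif4a1 to Eif4a2 at 0.057, Eif4e to Eif4e2 at 0.0070, Eif5a to Eif5a2 at -0.22) and Eif1a to Eif1ax turned from -0.056 to 0.024.

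Replicate numbers are shared between the groups, but same-numbered libraries did not deviate together (correlations -0.069, 0.02 and -0.019). Not every library correlated best with its own number. No pairing by number was thus seen, though such small values from 3 libraries per group cannot show that none was made. With replicate number as a block, edgeR called 0 members higher and 0 lower (13 at an unadjusted p under 0.05) and 0 related genes lower, where 2.23% of all genes were called. With the block and the length trend removed, 1 member was higher and 9 lower, where 14.1% of all genes were called, the median was -0.034 and 4 related genes were lower.

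Among the genes named with values, those whose log2 fold change turned sign were members that did not pass the test. Under upper quartile scaling and library totals they were 0.0038 and 0.0031 for Eef1a1, 0.022 and 0.021 for Eef1b2, 0.0074 and 0.0066 for Eef1g, and 0.011 and 0.0094 for Eif1b. With the length trend removed, the same with the block, and the same without D-serine replicate 1, they were -0.012, -0.013 and -0.049 for Eif1, -0.016, -0.017 and -0.028 for Eif2b4, -0.034, -0.034 and -0.050 for Eif3d, and -0.018, -0.018 and -0.052 for Eif4a2. In the first 2 of these fits they were -0.0037 and -0.0033 for Eif3m. In the last fit they were -0.0011 for Eif1a, -0.012 for Eif1ax and -0.026 for Eif4e2. Without 1 library at a time, the log2 fold change ran from -0.064 to 0.032 for Eef1b2, from -0.071 to 0.0091 for Eef1g, from -0.082 to 0.24 for Eef2kmt, from -0.13 to 0.036 for Eif1b, from -0.12 to 0.0064 for Eif3i, from -0.017 to 0.044 for Eif4a2, from -0.031 to 0.048 for Eif4e2 and from -0.081 to 0.014 for Eif5a. Over the named genes, 576 values kept their direction and side of the threshold, 43 lost a call, 37 gained one and 41 turned sign. Counts of 97 to 193 limit what could be seen for Eef2kmt.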
